A study of Mus musculus with 2 samples.

Results

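A set of 10 genes of iron handling was followed in RNA sequencing of a mouse T cell leukaemia, with and without restoration of the transcription factor Ikaros. They are the genes for uptake (Tfrc, Slc11a2, Steap3), storage (Fth1, Ftl1), export (Slc40a1), sensing inside the cell (Ireb2, Aco1), sensing of body iron (Hfe) and release of iron from haem (Hmox1). All 10 were found by Entrez Gene number and symbol among the 27179 genes of the count table. They were chosen by pathway and by the measured ratios of these same libraries, in which Hfe was among the lowest, so the ratios below describe the libraries and none is a test. ALL65 is a primary T cell acute lymphoblastic leukaemia with the Vav-tTA and TRE-GFP-shIkaros transgenes, in which the Vav promoter drives a tetracycline-controlled activator in blood cells and the activator drives a hairpin RNA against Ikaros linked to green fluorescent protein (GFP). The untreated group was GFPhigh and the Dox group, which had received doxycycline for 3 days to switch the hairpin off, was GFPmid. The cells of both groups were sorted from the spleen of leukaemic recipient mice and carried the same transgenes. All values come from 1 leukaemia, the groups differ in sort gate as well as in treatment, and strain, sex and age are not given in the labels.

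Most cells take up iron as transferrin bound to the transferrin receptor, which Tfrc encodes. In the endosome a reductase of the STEAP family, Steap3, reduces the iron and the transporter DMT1, from Slc11a2, moves it to the cytosol. Iron that is not used is stored in ferritin, a shell of heavy (Fth1) and light (Ftl1) chains, and leaves the cell through ferroportin, from Slc40a1. The iron regulatory proteins, from Aco1 and Ireb2, bind hairpins called iron-responsive elements when iron is scarce, which blocks translation of ferritin and ferroportin transcripts and protects the Tfrc transcript from decay. Dividing lymphoid cells have a high demand for iron and carry much transferrin receptor at the surface.

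The hairpins are printed here because they are the feature by which transcripts of uptake and of storage are controlled in opposite ways. The pattern searched was a loop of the letters CAGTGN closed by 5 pairs, with an unpaired C below them on the 5′ side and a lower stem with at least 4 of 5 pairs (G with T counted as a pair), on the transcript strand of the GENCODE transcripts of mm10. A match in the 5′ UTR was found for 6 of 21901 coding genes (0.0274%) and one in the 3′ UTR for 11 (0.0502%). Of the 10 iron genes, Fth1, Ftl1 and Slc40a1 had 1 match each in the 5′ UTR and Tfrc had 4 in the 3′ UTR. The known 3′ UTR element of Slc11a2 has an extra bulge that this pattern does not allow, so the search does not bear on it and it is not printed. The 27 bases of each are given 5′ to 3′ with the loop of 6 in capitals.
Fth1, 5′ UTR, chr19:9982733-9982759, plus strand: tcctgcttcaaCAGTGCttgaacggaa
Ftl1, 5′ UTR, chr7:45459780-45459806, minus strand: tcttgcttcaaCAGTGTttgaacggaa
Slc40a1, 5′ UTR, chr1:45925466-45925492, minus strand: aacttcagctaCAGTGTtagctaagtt
Tfrc, 3′ UTR, chr16:32631220-32631246, plus strand: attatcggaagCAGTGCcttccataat
Tfrc, 3′ UTR, chr16:32631599-32631625, plus strand: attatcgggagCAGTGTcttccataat
Tfrc, 3′ UTR, chr16:32631664-32631690, plus strand: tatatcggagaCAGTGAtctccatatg
Tfrc, 3′ UTR, chr16:32631711-32631737, plus strand: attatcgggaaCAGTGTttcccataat
Read counts show the amount of a transcript. They do not show translation, where the elements of the 5′ UTR act.

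The study took cells from 3 mice per group and sequenced each RNA sample in 2 runs, but the count table has 1 column per group, called a library here, and the labels do not tell how the mice and runs relate to that column. These columns hold 7477988 counts without Dox and 14457475 with Dox, and no value has a replicate error. Levels are counts per 1000000 counted reads (CPM) over library sizes scaled by the trimmed mean of M values (TMM). Ratios are log2 of Dox over untreated with a prior count of 2, and the bounds beside levels and ratios are exact 95% intervals that cover counting error only. Ikzf1, which encodes Ikaros and is the target of the hairpin, was measured at 262 CPM untreated and at 1455 CPM after Dox. Of the 10 T lineage markers checked, 9 had a mean of at least 1 CPM, while Ptcra had 3 counts and 0. The coreceptor genes Cd8a and Cd4 stood higher with Dox, at log2 ratios of 0.80 (0.75 to 0.85) and 0.83 (0.67 to 0.99), as did the receptor chain gene Cd247 at 0.78 (0.70 to 0.85), whereas Cd3g stood at -0.28, Lck at -0.21 and Thy1 at 0.09. The part of this difference in the iron gene values was not tested. Slc11a2 and Ftl1 overlap genes annotated on the opposite strand, Gm5475 with 0 and 1 counts and Gm10252, and without a stated strand setting such reads cannot be told apart.

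Among the 10 iron genes, 2 stood at least 2-fold lower with Dox, Hfe and Steap3, and 0 stood at least 2-fold higher. The background was 2.24% for the lower and 2.21% for the higher side, over the 10113 genes that reached 5 CPM in at least one library. This minimum was met by 8 iron genes, and not by Hmox1 and Slc40a1. Of these 8, 6 lay within 1.5-fold (75%), against 87.5% of all genes. The log2 ratio was below 0 for 7 of the 8 (87.5%), against 48.2% of all genes past the minimum, and the median was -0.17, against 0.01. A ratio of 1 lay outside the counting interval for 6 of the 8, 5 lower and 1 higher, and for 50.7% of all genes past the minimum. The 10 genes were chosen with these ratios known, and Hfe passed the minimum only through the untreated library. These counts, shares and medians therefore describe the choice and are no support for a shift of iron genes. In sorted cells measured in bulk, fewer cells of a type and less RNA per cell cannot be told apart.

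**Figure D1:**
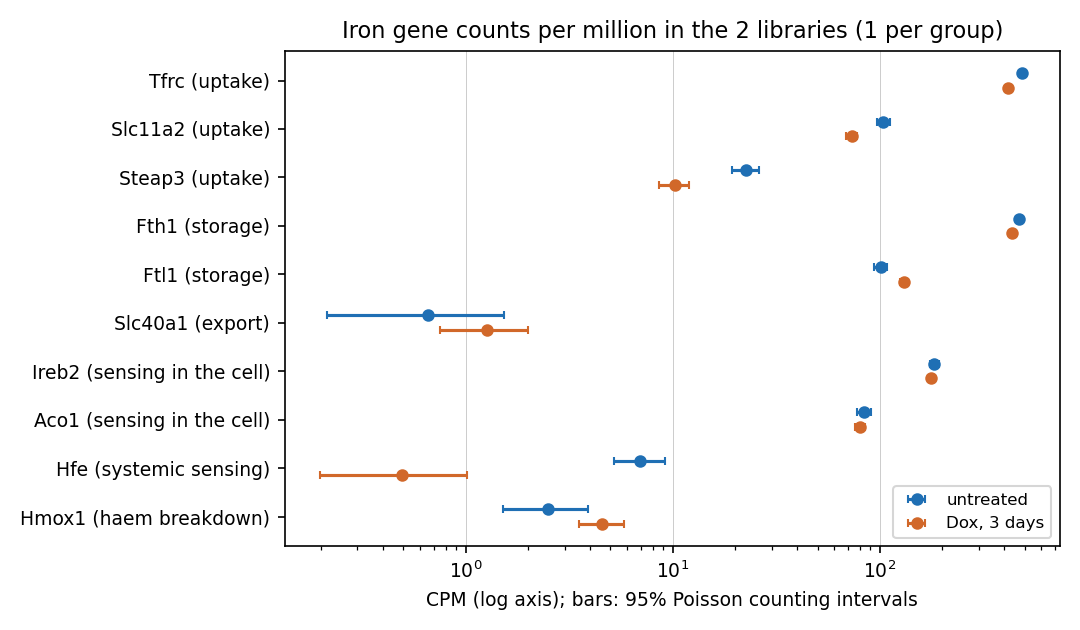
Level of the 10 iron genes in the untreated (blue) and Dox (orange) library, in CPM on a log axis, 1 library per group; bars are exact 95% Poisson counting intervals. The points of Hfe lie apart at 6.97 and 0.492 CPM and those of Steap3 at 22.5 and 10.2 CPM, while those of Ireb2 and Aco1 nearly coincide.

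All 3 uptake genes stood lower with Dox, by unlike amounts. Tfrc (Entrez Gene 22042, chromosome 16 from 32608896 to 32632794), the receptor that brings in transferrin, had 3678 untreated and 5947 Dox counts, or 484 CPM (468 to 499.9) and 418 CPM (407 to 429). The intervals do not overlap, and the log2 ratio was -0.21 (-0.27 to -0.15), a level 1.16-fold lower. Slc11a2 (Entrez Gene 18174, chromosome 15 from 100387898 to 100424209), the endosomal iron transporter, had 790 and 1043 counts, or 104 CPM (96.8 to 111) and 73.3 CPM (68.9 to 77.9). It stood 1.42-fold lower, with a log2 ratio of -0.50 (-0.64 to -0.37).

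Steap3 (Entrez Gene 68428, chromosome 1 from 120226414 to 120271081), the endosomal ferrireductase, had fewer counts in the Dox library although that library was the deeper one, 145 against 171. Its level was 22.5 CPM (19.3 to 26.1) untreated and 10.2 CPM (8.60 to 11.99) treated, 2.19-fold lower. The log2 ratio was -1.13 (-1.47 to -0.81), so the interval reaches inside 2-fold. The 3 genes of this endosomal route did not stand lower in proportion. Per base of gene length, Tfrc stood 13.9-fold (11.9 to 16.3) above Steap3 in the untreated library and 26.5-fold (22.5 to 31.5) above it in the Dox library, a comparison within each library that needs no scaling between them. Tfrc over Slc11a2 was 5.34 (4.94 to 5.77) and 6.54 (6.12 to 6.99), on the same per-length scale. The other STEAP genes, Steap1, Steap2 and Steap4, had 0 counts in both libraries, which leaves room for up to 0.395 CPM untreated and 0.211 CPM treated.

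The ferritin chains stood apart in direction. Fth1 (Entrez Gene 14319, chromosome 19 from 9980600 to 9985111), the heavy chain that oxidises iron on entry, had 3584 and 6164 counts, or 472 CPM (456 to 487) and 433 CPM (423 to 444), with a log2 ratio of -0.12 (-0.18 to -0.06). Ftl1 (Entrez Gene 14325, chromosome 7 from 45457944 to 45459886), the light chain that favours mineral formation, had 769 and 1855 counts, or 101 CPM (94.2 to 109) and 130.4 CPM (125 to 136). It was 1.29-fold higher with Dox, with a log2 ratio of 0.37 (0.24 to 0.49), and it was the only one of the 8 genes past the CPM minimum with a ratio above 0.

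Within each library the ratio of heavy to light chain transcripts per base was 5.22 (4.83 to 5.65) without Dox and 3.72 (3.53 to 3.92) with Dox, and the intervals do not overlap. With the longest GENCODE transcript in place of the deposited gene length, these ratios were 2.19 and 1.56, so their size rests on the lengths while their quotient does not. Both ferritin genes have processed pseudogenes, and the sources used here do not say how reads shared with them were counted. The 1 listed row named as an Ftl1 pseudogene, Ftl1-ps2, had 4 and 9 counts. Mitochondrial ferritin, Ftmt, had 0 counts in both libraries.

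**Figure D2:**
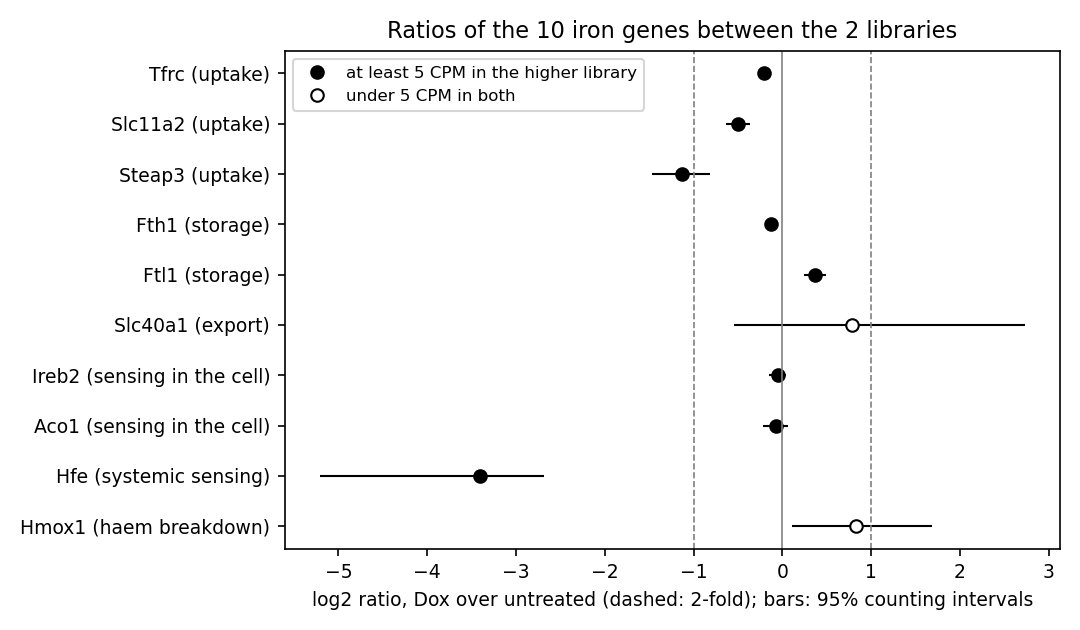
Log2 ratio of Dox over untreated for the 10 iron genes, with exact 95% counting intervals; dashed lines mark 2-fold, and open points are genes under 5 CPM in both libraries. Hfe (-3.41) lies past the lower line with its whole interval, Steap3 (-1.13) straddles it, and Ftl1 (0.37) is the only filled point to the right of 0.

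The genes of the iron regulatory proteins were the least different between the libraries. Ireb2 (Entrez Gene 64602, chromosome 9 from 54862658 to 54912534) encodes IRP2, which is removed by degradation when iron is plentiful. It had 1393 and 2515 counts, or 183 CPM (174 to 193) and 177 CPM (170 to 184), and a log2 ratio of -0.05 (-0.15 to 0.04). Aco1 (Entrez Gene 11428, chromosome 4 from 40143265 to 40199009) encodes IRP1, which is a cytosolic aconitase while it holds an iron-sulphur cluster. It had 640 and 1139 counts, or 84.2 CPM (77.8 to 91.0) and 80.1 CPM (75.5 to 84.9), and a log2 ratio of -0.07 (-0.21 to 0.07). For both genes the intervals of the levels overlap and that of the ratio includes 0. Per base, Ireb2 stood 1.62-fold (1.47 to 1.78) above Aco1 without Dox and 1.64-fold (1.53 to 1.76) above it with Dox. Both proteins are regulated mainly after transcription, which counts do not show.

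Of the transcripts with printed elements in the 5′ UTR, Fth1 stood slightly lower, Ftl1 higher, and Slc40a1 was too low to tell. Those elements act on translation, which counts do not show, so these ratios do not bear on control through them. Tfrc, with 4 matches to the searched pattern in the 3′ UTR, and Fth1, with 1 in the 5′ UTR, both stood lower. The pattern is strict, so these numbers of matches need not be the full numbers of elements. The level of Tfrc per base was 0.181 (0.173 to 0.189) of that of Fth1 without Dox and 0.170 (0.164 to 0.176) with Dox. The intervals of these shares overlap, which does not show that the share was unchanged. No interval was computed for its change, and control by iron regulatory proteins was not tested.

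Hfe (Entrez Gene 15216, chromosome 13 from 23702034 to 23710854, minus strand) had the lowest ratio of the 10 genes and the one farthest from 0. It encodes an MHC class I-like protein that pairs with beta-2 microglobulin and binds the transferrin receptor, and its loss causes the iron overload of hereditary haemochromatosis. There were 53 counts without Dox and 7 with Dox, or 6.97 CPM (5.22 to 9.12) and 0.492 CPM (0.198 to 1.01). The log2 ratio was -3.41 (-5.21 to -2.68), a level 10.6-fold lower, and 9 of the 10113 genes past the CPM minimum, Hfe included, had a ratio this low or lower. Even the bound nearest to 0 lies past 2-fold, a limit that 1.39% of all genes met on the lower side. Hfe was chosen with this ratio known and met the 5 CPM minimum only through the untreated library. Its rank and this share therefore describe the choice and are no support for a difference. With 7 counts, the level with Dox is known only to within the interval given. The gene was also low before treatment, at 0.0411 (0.0307 to 0.0539) of the level of Tfrc per base.

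The partners of the HFE protein did not stand lower in the same way. B2m, which encodes beta-2 microglobulin, had 564 CPM untreated and 751 CPM treated, a log2 ratio of 0.41 (0.36 to 0.47). Tfrc stood 1.16-fold lower, as given above. Tfr2, the second transferrin receptor, had 0 and 1 counts. Hamp, which encodes the hormone hepcidin that HFE regulates in liver, had 1 count in each library.

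Hfe lies in a histone gene cluster, and the genes listed beyond its 5′ end did not share its ratio. H1f2, which lies 27953 bases beyond the 5′ end of Hfe, had 46 and 98 counts and a log2 ratio of 0.18 (-0.33 to 0.72), and H3c3, at 34188 bases, had 13 and 34 counts and a ratio of 0.44 (-0.48 to 1.53). On the other side and closer to Hfe, H4c3 at 3576 bases had 0 and 1 counts and H1f6 at 5489 bases had 0 in both libraries. These counts are too low to tell whether the closest genes share its ratio. Most histone transcripts lack a poly(A) tail, and the sources used here do not say how RNA was selected. Around Steap3, 3110009E18Rik had 68 and 106 counts and a ratio of -0.26 (-0.72 to 0.20), Dbi a ratio of 0.10 (-0.05 to 0.25), and C1ql2 and Marco 0 counts in both libraries.

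The 250 bases before the start of Hfe are shown because Hfe had the ratio farthest from 0. They come from RefSeq promoter windows on GRCm38.p6 (mm10), in which 7 of the 10 genes were found. Several motifs were searched on both strands: GGGAA, the core bound by Ikaros family proteins, CACGTG, the E-box bound by Myc, and TGACNNNGC, the core of the antioxidant response element. Of 32851 promoter windows of this length, 56.2% hold GGGAA, 6.02% CACGTG and 10.2% TGACNNNGC. In the Hfe window, capitals mark 1 match to TGACNNNGC and 1 to GGGAA on the opposite strand, read as TTCCC.
Hfe, chr13:23710855-23711104, minus strand: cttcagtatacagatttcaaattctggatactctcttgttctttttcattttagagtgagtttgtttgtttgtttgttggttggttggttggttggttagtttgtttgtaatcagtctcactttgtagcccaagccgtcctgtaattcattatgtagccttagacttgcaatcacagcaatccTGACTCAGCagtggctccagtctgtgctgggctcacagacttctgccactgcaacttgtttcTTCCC
Steap3 has 4 windows in the table, and 2 of them hold 1 match to GGGAA each. Windows of Ftl1 and Aco1 hold 1 match to GGGAA, 1 of the 2 Fth1 windows holds 2, and those of Tfrc and Ireb2 hold 0. CACGTG was found in none of the 12 windows of these genes. A match to a motif this short is a description of the sequence, and binding was not measured here.

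Hmox1 and Slc40a1, genes that are abundant in macrophages that recycle red cells, were scarce in both libraries. Hmox1 (Entrez Gene 15368, chromosome 8 from 75093618 to 75100593), the inducible haem oxygenase that frees iron from haem, had 19 and 65 counts, or 2.50 CPM (1.51 to 3.90) and 4.57 CPM (3.53 to 5.82). It stood 1.77-fold higher with Dox, with a log2 ratio of 0.82 (0.11 to 1.69). The intervals of the 2 levels overlap, but that of the ratio, which compares them directly, excludes 0. That interval covers counting error only, and the gene stayed under 5 CPM in both libraries. Slc40a1 (Entrez Gene 53945, chromosome 1 from 45908070 to 45926532), the iron exporter, had 5 and 18 counts, or 0.658 CPM (0.214 to 1.54) and 1.27 CPM (0.75 to 2.0). Its log2 ratio of 0.78 (-0.54 to 2.73) includes 0, and a difference was not detectable at this depth. The constitutive enzyme Hmox2 was far more abundant than Hmox1, at 68.4 CPM untreated and 83.9 CPM treated, a log2 ratio of 0.29 (0.14 to 0.44).

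Markers of splenic macrophages and monocytes stood apart between the libraries in both directions. Of 15 such markers, 5 had a mean of at least 1 CPM, and the summed level of all 15 was 28.9 CPM untreated and 30.2 CPM treated. Itgam stood at 8.42 and 14.7 CPM and Cd68 at 3.29 and 6.19 CPM, whereas Lyz2 stood at 7.24 and 1.69 CPM and Axl at 7.24 and 2.18 CPM. The monocyte gene Ly6c2, with 7 and 38 counts, had the highest ratio of the 5, at 1.37 (0.36 to 2.94). Of the markers that define red pulp macrophages, Spic had 4 and 6 counts, Vcam1 3 and 14 and Adgre1 2 and 5, while Cd163 had 0 in both libraries. Marco, a marker of marginal zone macrophages, also had 0 in both. Erythroid cells, another source of iron gene transcripts, had 12 of 13 markers found, with a summed level of 8.42 and 10.8 CPM, and Epb42 at 0 counts in both. The summed level was 0.395 and 0.633 CPM for 6 B cell markers and 0.263 and 0.0703 CPM for 6 neutrophil markers. The part of other cells in the values of Hmox1 and Slc40a1 was not tested.

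**Figure D3:**
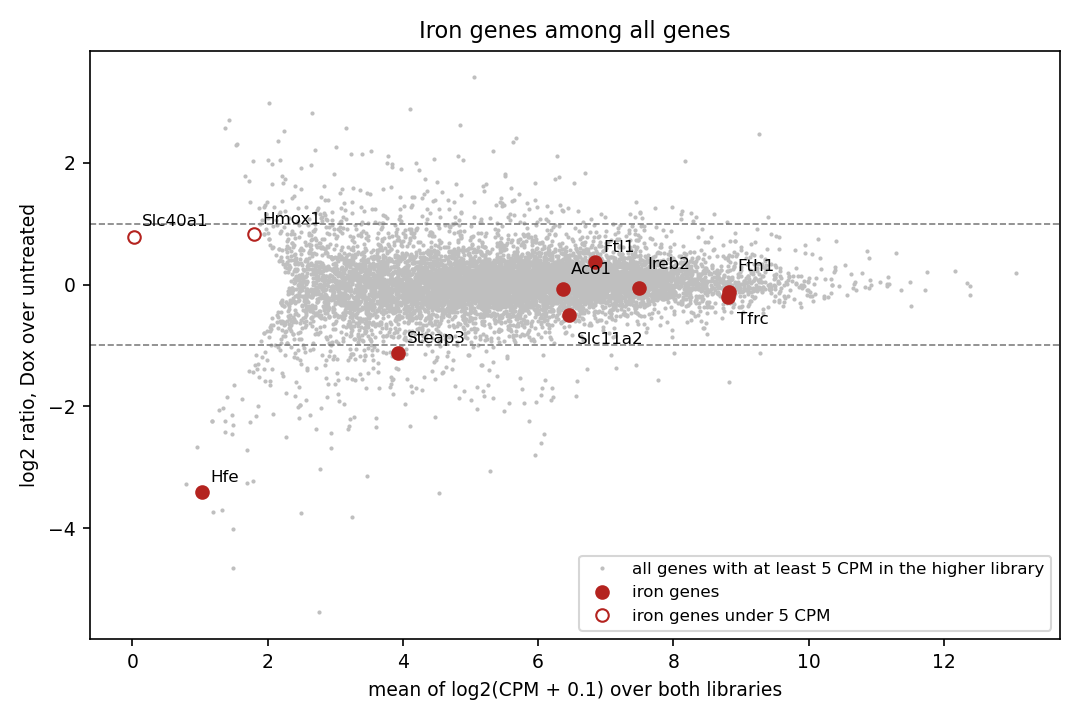
Log2 ratio of Dox over untreated against the mean of log2(CPM + 0.1) over both libraries, for the 10113 genes that reach 5 CPM in at least one library (grey) and the iron genes (red, open where under 5 CPM); dashed lines mark 2-fold. Tfrc and Fth1 sit near 0 at high level, and Hfe at -3.41 lies at the lower left among the lowest ratios.

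Compared per base of gene length, the levels of the 10 genes spanned a wide range and kept most of their order. In the untreated library Fth1 stood first at 545 CPM per kb, followed by Ftl1 at 104 and Tfrc at 98.5, Ireb2 at 31.6, Aco1 at 19.5, Slc11a2 at 18.4, Steap3 at 7.08, Hfe at 4.05, Hmox1 at 1.59 and Slc40a1 at 0.195 CPM per kb. The pairs of neighbours in this order that did not differ beyond counting error were Ftl1 over Tfrc at 1.06 (0.979 to 1.15) and Aco1 over Slc11a2 at 1.06 (0.951 to 1.18). In the Dox library the first 7 places were the same, with Fth1 at 500.3, Ftl1 at 134 and Tfrc at 85.1 CPM per kb. Both of those pairs were then apart, at 1.58 (1.499 to 1.67) and 1.43 (1.31 to 1.55). Hfe moved from the eighth place to the last, at 0.286 CPM per kb, and Hmox1 stood within counting error of Steap3. In that last place Hfe did not differ beyond counting error from Slc40a1 at 0.374. Fth1 made up 65.6% of the summed per-length level of the 10 genes without Dox and 63.4% with Dox, and Ftl1 12.6% and 17.05%. With the longest GENCODE transcript as length, Fth1 stood at 229 CPM per kb untreated and 210.1 treated, still first, and Steap3 at 4.36 and 1.98. Slc11a2 then stood above Aco1 in the untreated library, at 23.5 and 21.98 CPM per kb. With that length Hmox1 stood above Steap3 in the Dox library, at 2.91 and 1.98 CPM per kb, so the first 7 places were then not the same. On that length Tfrc stood at 22.7 and 43.3 times Steap3 and at 0.433 and 0.407 of Fth1, and untreated Hfe at 0.0197 of Tfrc.

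The rest of iron metabolism was described by 8 lists of genes written from general knowledge, which hold 107 genes beside the 10. Of these, 80 passed the 5 CPM minimum, 73 of them (91.3%) lay within 1.5-fold, 1 stood at least 2-fold lower and 0 stood at least 2-fold higher. The share past 2-fold in either direction over all genes was 4.45%. The median log2 ratio of the 86 genes with a mean of at least 1 CPM was -0.04, against 0.01 over all 11498 such genes.

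Of the uptake and endosome list, 12 of 16 genes had a mean of at least 1 CPM, 6 with a ratio below 0 and 6 above it, with a median of 0.01 and 0 past 2-fold. Slc39a8, a metal importer of the ZIP family, stood at 35.0 CPM untreated and 22.5 CPM treated, a log2 ratio of -0.63 (-0.88 to -0.40), and its relative Slc39a14 at 0.04 (-0.12 to 0.21). Cybrd1, a ferrireductase of the surface, stood at 11.6 CPM untreated and 19.4 CPM treated, a ratio of 0.74 (0.39 to 1.11). Mcoln2, a channel of the endosome, had a ratio of -0.57 (-1.18 to -0.002). The iron chaperone genes Pcbp1 and Pcbp2 had ratios of -0.15 and -0.02, and Ncoa4, the receptor that delivers ferritin to the lysosome, one of 0.08 (-0.23 to 0.41).

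Of the sensing and systemic control list, 8 of 17 genes had a mean of at least 1 CPM, with a median of -0.04. Fbxl5, the ubiquitin ligase subunit that removes IRP2 when iron is plentiful, stood at 70.7 CPM untreated and 61.0 CPM treated, a log2 ratio of -0.21 (-0.37 to -0.05), and its partner Cul1 had one of -0.18 (-0.26 to -0.10). Hif1a, a hypoxia factor whose protein is degraded by iron-dependent enzymes, stood at 214 CPM untreated and 287 CPM treated, a ratio of 0.42 (0.34 to 0.50). The 1 gene past 2-fold was Acvr1, a BMP receptor of the hepcidin pathway, with 50 and 43 counts and a ratio of -1.08 (-1.74 to -0.50), whose interval reaches inside 2-fold. In this list Hamp2, Hjv, Bmp6, Heph and Hephl1 had 0 counts in both libraries.

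Transcripts of both mitochondrial iron importers stood lower with Dox, though neither reached 2-fold, and import itself was not measured. A ratio below 0 was also that of 48.2% of all genes past the minimum. Slc25a37, which encodes mitoferrin-1, had 135 CPM untreated and 95.6 CPM treated, a log2 ratio of -0.49 (-0.61 to -0.38), and Slc25a28, which encodes mitoferrin-2, had 26.97 and 17.01 CPM and one of -0.66 (-0.94 to -0.39). Iron-sulphur cluster assembly in mitochondria did not share this direction throughout, with the scaffold gene Iscu at 0.22 (-0.07 to 0.52), the desulphurase gene Nfs1 at 0.28 (0.13 to 0.44), Isca1 at 0.65 (0.30 to 1.02) and the chaperone gene Hspa9 at -0.37 (-0.42 to -0.32). Over the 18 genes of this list with a mean of at least 1 CPM, the median was -0.08, with 11 below 0, 7 above and 0 past 2-fold.

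The cytosolic assembly list had a median of -0.03 over 10 genes, 5 on either side of 0. Its largest ratio was that of Ciao2b, a targeting factor, at 0.48 (0.24 to 0.72), and Mms19, Ndor1 and Glrx3 stood between -0.19 and -0.16. Haem synthesis had a median of -0.10 over 9 genes, 6 below 0, and 0 reached 1.5-fold. Alad stood at -0.29 (-0.44 to -0.14), Fech, which inserts iron into the ring, at -0.23 (-0.41 to -0.04), Uros at -0.25 and Ppox at -0.12. Alas1, the first enzyme of the route in most tissues, stood at 0.08 (-0.14 to 0.30), and the erythroid form Alas2 had 7 and 16 counts.

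Haem transport and breakdown had a median of -0.06 over 10 genes, 5 on either side of 0. The haem exporter gene Flvcr1 stood at 54.5 CPM untreated and 69.2 CPM treated, a log2 ratio of 0.35 (0.18 to 0.52), the mitochondrial transporter gene Abcb10 at 0.36 (0.16 to 0.57) and Abcb6 at -0.56 (-0.86 to -0.26). Of the factors that control Hmox1, the repressor gene Bach1 stood at 196 CPM untreated and 182 CPM treated, a ratio of -0.11 (-0.20 to -0.01), its relative Bach2 at 29.5 CPM untreated and 42.9 CPM treated, a ratio of 0.54 (0.32 to 0.77), and the activator gene Nfe2l2 at 91.2 CPM untreated and 104 CPM treated, a ratio of 0.18 (0.05 to 0.32). Mafg, a small Maf partner of these factors, had a ratio of -0.45 (-0.82 to -0.09). The 13 measured genes of that list had a median of 0.01. Among its Nrf2 targets were Gclc at -0.22, Prdx1 at -0.19, Txnrd1 at 0.12 and Gclm at -0.09.

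The ferroptosis list, genes of cell death by iron-driven lipid peroxidation, had a median of 0.01 over 8 genes, Tfrc among them, and 0 past 2-fold. Slc3a2, the partner chain of the cystine transporter, stood at 217 CPM untreated and 142 CPM treated, a log2 ratio of -0.61 (-0.70 to -0.51). Slc7a11, the other chain of that transporter, had 20 and 56 counts and a ratio of 0.55 (-0.18 to 1.40), and cystine uptake was not measured. Gch1, which makes tetrahydrobiopterin, stood at 11.3 CPM untreated and 18.5 CPM treated, a ratio of 0.70 (0.35 to 1.08). Lpcat3 had a ratio of 0.39 (0.24 to 0.56) and Dhodh one of -0.30 (-0.54 to -0.06). Gpx4, the peroxidase that guards against this death, had 116 and 219 counts.

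**Figure D4:**
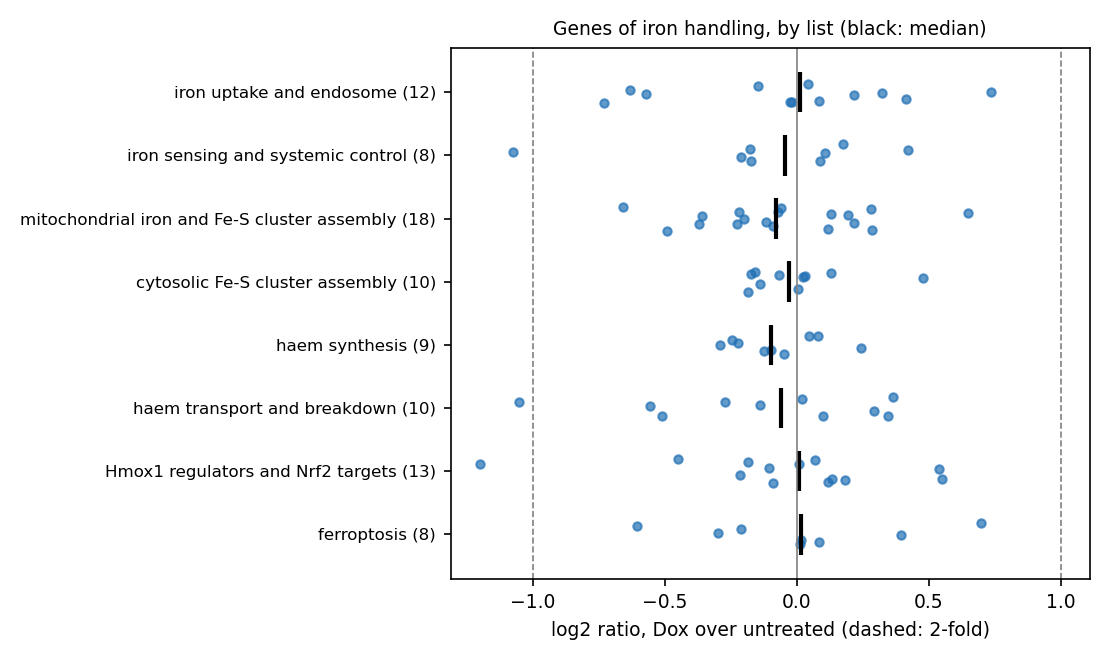
Log2 ratio of Dox over untreated for each gene with a mean of at least 1 CPM in the 8 lists (blue points, spread vertically for legibility, with the number of genes in brackets), the list median (black) and 2-fold (dashed). All medians lie between -0.10 and 0.01, and the points left of the lower line are Acvr1, Abcg2 and Maff, the last 2 of which stood under 5 CPM in both libraries.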

How the data were processed

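RNA of sorted ALL65 leukaemia cells was sequenced, with 1 library per group. The deposited tables hold raw counts per gene, with no normalization by the authors, and a gene length in bases per the file headers. The submitters' processing notes name CASAVA 1.8.2, featureCounts and mm10. Not given in the sources used here are the aligner, the annotation, the strand setting, the treatment of shared reads, and how mice and runs were combined. The series table and the file of each library differed in 0 values.

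Symbols came from the RefSeq table of GRCm38.p6 (25275 of 27179 genes). Counts were scaled with TMM in edgeR 4.0.16, R 4.3.3, with factors of 1.02 and 0.984. Intervals of ratios are Clopper-Pearson (Dox counts out of both libraries' counts of a gene), and those of levels are Poisson, both at 95%. A gene past the size rule reached 5 CPM in at least one library and differed by at least 2-fold. No test was run. A count of 0 was taken to allow 3 counts. Levels per length used the deposited gene length. Hairpins were located with GENCODE vM21. The rule and the intervals were tested on simulated Poisson counts. These hold counting error only, so the behaviour under spread between mice or libraries was not tested.

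The 10 genes and the lists were chosen with earlier results of these data known. Named were the 10 genes, their neighbours where past the size rule, and up to 4 genes per list (largest absolute ratios among those reaching 5 CPM), plus any past the size rule. The other list genes named were chosen after their values were seen. Alternatives were scaling by total counts or by DESeq2 1.42.0 size factors, a prior count of 0.5 or 5, a minimum of 1 CPM, 20 CPM or none, the size rule on the interval bound, other list minimums, and the longest transcript as length. Other steps used Python 3.11.15 with scipy 1.17.1, pandas 2.3.3, matplotlib 3.10.9 and numpy 2.4.6.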

Additional observations from a re-analysis of the deposited data

How the results depend on the processing

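The ratios of all 10 iron genes kept their sign with DESeq2 size factors, total counts and prior counts of 0.5 and 5, and that of Hfe ranged from -3.71 to -2.97. Hfe and Steap3 were the 2 genes past 2-fold under each of these and with a minimum of 1 CPM or none. With a minimum of 20 CPM 1 gene remained past 2-fold, Steap3, because Hfe reached only 6.97 CPM in its higher library. With the interval bound in place of the ratio 1 gene remained, Hfe, because the bound of Steap3 nearest to 0 was -0.81. Over all genes these minimums gave 440, 744 and 104 genes at least 2-fold lower (1 CPM, none, 20 CPM) and 407, 784 and 129 higher. Without a minimum the total is all 27179 listed genes. The totals past 1 CPM and 20 CPM are not given here, so no share stands beside the iron gene counts at those minimums. The interval bound gave 141 lower, 1.39% of the 10113 genes past 5 CPM, and 115 higher. With the longest GENCODE transcript as length, heavy over light ferritin chain was 2.19 without Dox and 1.56 with Dox. No paired analysis was possible because each group has 1 library, and no library could be left out. Depth limits Hfe with Dox, Slc40a1 and Hmox1, which rest on few counts.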

Other observations

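Outside the 10 iron genes, 12 genes of the count table hold the printed hairpin pattern in a UTR, a set formed after seeing the data. Of these, 8 reached 5 CPM in at least one library, 0 of the 8 stood at least 2-fold apart, 3 had a ratio below 0 and 5 above it. Over all genes past this minimum, 4.45% stood at least 2-fold apart and 48.2% had a ratio below 0. With so few genes, these counts do not set the group apart. The lowest ratio was that of Ppp1r1b, a phosphatase inhibitor, with a match in the 5′ UTR, 110 and 131 counts and a log2 ratio of -0.64 (-1.03 to -0.27). Of the genes with a match in the 3′ UTR, Fbxl14 stood at 144 CPM untreated and 159 CPM treated, a ratio of 0.14 (0.03 to 0.24), Cant1 at 0.23 (0.09 to 0.38) and Zbtb44 at -0.17 (-0.31 to -0.02). Whether iron regulatory proteins bind these transcripts was not measured here.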
